A study of Mus musculus with 6 samples.

Results

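The 8 genes described here set, copy, or take part in removing DNA methylation: the DNA methyltransferase genes Dnmt1, Dnmt3a and Dnmt3b, the hemimethylated-DNA reader gene Uhrf1, the isocitrate dehydrogenase genes Idh1 and Idh2, and the DNA glycosylase genes Tdg and Mbd4. They were listed by name, out of 21887 protein-coding genes, and their 5-hydroxymethylcytosine (5hmC) was followed through every peak that overlapped the RefSeq span of a gene or the 5 kb on either side of it. The lists of 4 libraries held 68 such peaks, which merged into 27 regions, out of 174070 regions in the genome. The mark was mapped by immunoprecipitation of sonicated DNA with a rabbit antibody to 5hmC and sequencing. The tested cells, called KO, were Tet2-/- cultures that had been given 200 nM 4-hydroxytamoxifen (4-OHT) for 2 passages (4 days), in 2 libraries. Their controls, called flox, were Tet2fl/fl cultures given ethanol, in 2 libraries. Both groups grew from Kit-enriched bone marrow of Tet2fl/fl;CreER mice (C57BL/6) that had been transduced with the retrovirus MigR1-AE-IRES-GFP, which carries AML1-ETO and GFP, and both were sorted at passage 5 for a phenotype of immature myeloid cells (CD16/32+ and GFP+, negative for CD11b and Gr1). AML1-ETO is a leukaemia fusion protein that joins the transcription factor RUNX1 (AML1) to the corepressor ETO. The promoter that drives CreER is not given in the labels, and only KO cultures met the drug, so drug, active Cre and loss of Tet2 cannot be told apart.

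DNMT1 copies methylation onto new DNA strands at replication, guided by UHRF1, while DNMT3A and DNMT3B set methylation at sites that had none. TET enzymes oxidise the methyl group to 5hmC and beyond, with 2-oxoglutarate as co-substrate, which IDH1 makes in the cytosol and IDH2 in mitochondria. TDG cuts out the most oxidised bases and MBD4 removes mismatched thymine at CpG sites, so that repair can restore plain cytosine. DNMT3A, TET2, IDH1 and IDH2 are recurrently mutated in human acute myeloid leukaemia. All values below describe 5hmC at the DNA of these genes, not their RNA or protein.

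The authors' lists held 116539 and 122101 peaks in KO replicates 1 and 2, against 118727 and 118522 peaks in flox replicates 1 and 2, and covered 110.3 to 113.35 Mb. The reads behind each list are unknown, and a peak that is absent from a list may lie just under the caller's threshold. Nothing in the labels tells separate cultures from repeat libraries of 1 culture, so the spread within a group may be technical. Less 5hmC per cell and fewer cells with the mark cannot be told apart in DNA from many cells, and peaks of DNA give no check of the sorted cell type. Over Tet2, the targeted gene, and its flanks, 2432 and 2448 bp were called in the KO libraries and 1981 and 3509 bp in the flox libraries. The excised part of the gene is not named in the labels, so this checks nothing about the deletion.

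The start sites of the 8 genes were nearly free of 5hmC peaks in both groups. RefSeq start windows on GRCm38 (250 bases before to 50 bases after each start) gave 14 windows for the 8 genes, and 13 of them met no peak in any library. The exception was the first start of Idh1, where KO replicate 2 alone had a peak covering 191 of the 300 bases. Across 21263 windows of protein-coding genes, 14.0% met a peak in at least 1 library. By library these shares were 8.66% and 9.42% in KO replicates 1 and 2 and 9.8% and 8.98% in flox replicates 1 and 2, so windows without a peak are the common case. Sequences from 5 of the 14 windows are shown, from RefSeq on GRCm38, 5′ to 3′ on the gene's strand. Every CG is in capitals, because CG is the site where the DNA methyltransferases mostly act. The Idh1 sequence holds the 160 bases between its first start and the span of the neighbouring gene Pikfyve (chr1:65186480-65186639, minus strand). Both Dnmt3a sequences are the 250 bases before a start on the plus strand, the first at chr12:3806730-3806979 and the third at chr12:3891494-3891743. The Dnmt1 sequence precedes its most upstream start (chr9:20959889-20960138, minus strand), and the Dnmt3b sequence ends at the edge of the gene's span (chr2:153649199-153649410, plus strand).
Idh1, first start: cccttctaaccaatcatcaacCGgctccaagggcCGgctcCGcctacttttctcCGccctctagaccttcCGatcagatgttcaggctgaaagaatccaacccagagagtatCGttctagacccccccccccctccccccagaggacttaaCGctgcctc
Dnmt3a, first start: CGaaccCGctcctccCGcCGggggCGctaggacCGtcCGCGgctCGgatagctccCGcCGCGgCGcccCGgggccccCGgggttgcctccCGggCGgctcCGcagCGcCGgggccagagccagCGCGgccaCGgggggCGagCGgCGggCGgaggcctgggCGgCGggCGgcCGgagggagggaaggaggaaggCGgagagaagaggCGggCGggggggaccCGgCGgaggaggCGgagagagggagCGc
Dnmt3a, downstream start: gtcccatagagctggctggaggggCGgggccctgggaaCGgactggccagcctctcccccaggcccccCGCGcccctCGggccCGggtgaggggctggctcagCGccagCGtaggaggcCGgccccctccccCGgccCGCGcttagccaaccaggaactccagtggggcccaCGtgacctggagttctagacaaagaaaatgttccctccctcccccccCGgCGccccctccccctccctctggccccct
Dnmt1, most upstream start: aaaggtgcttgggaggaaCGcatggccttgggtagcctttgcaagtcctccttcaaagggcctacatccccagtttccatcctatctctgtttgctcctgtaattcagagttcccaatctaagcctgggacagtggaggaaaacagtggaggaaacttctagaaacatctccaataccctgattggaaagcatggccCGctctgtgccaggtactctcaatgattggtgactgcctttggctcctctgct
Dnmt3b, start: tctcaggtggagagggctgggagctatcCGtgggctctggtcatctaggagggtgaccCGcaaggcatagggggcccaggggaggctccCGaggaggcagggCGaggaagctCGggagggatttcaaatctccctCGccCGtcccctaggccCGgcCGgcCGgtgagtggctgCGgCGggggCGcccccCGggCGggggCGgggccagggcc

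These windows ranged widely in CG content. The whole window of 300 bases held 46 CG at the first and 18 at the third start of Dnmt3a, 30 at Dnmt3b, 23 at the first start of Idh1 and 2 at the most upstream start of Dnmt1. Dnmt1 is known to have a separate oocyte form that begins upstream of the somatic one, and the most downstream of its 3 starts, by contrast, held 33 CG. The motif CG reads the same on both strands and was found at least once in 95.4% of all windows, with a median of 13. Both the CG-dense and the CG-poor windows shown here lay outside peaks, apart from that of Idh1 in KO replicate 2.

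Dnmt3a carried by far the most called 5hmC of the 8 genes, about evenly in both groups. Its interval held 11201 and 9912 bp under peaks in KO replicates 1 and 2, and 11109 and 10837 bp in flox replicates 1 and 2. The flox values lay between the KO values, with means of 10556.5 ± 911.5 bp in KO and 10973 ± 192.3 bp in flox (SD, n = 2 each). Per length, peaks covered 9.12% and 8.07% of the Dnmt3a interval in the KO libraries and 9.04% and 8.82% in the flox libraries. On the mean of the 4 libraries Dnmt3a stood at the 82.1th percentile of all protein-coding genes, whose median was 3.23%. The difference was small against its error (log2 difference of KO minus flox -0.04, SE 0.13, 95% interval -0.38 to 0.29, limma adjusted p = 0.975 over all genes), and its sign turned without KO replicate 2 (0.05).

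**Figure D1:**
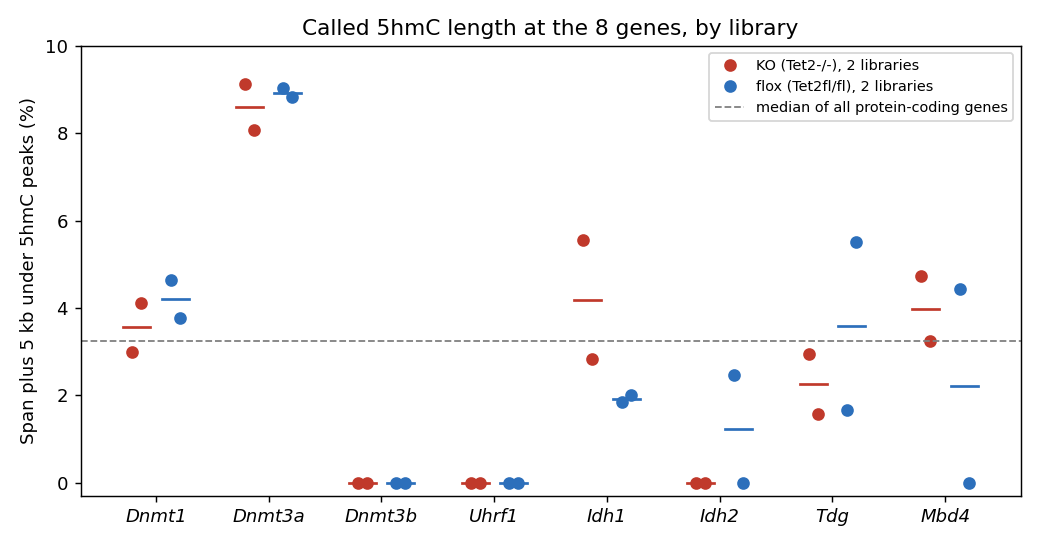
Share of each gene's RefSeq span plus 5 kb that lay under 5hmC peaks (y axis, %), for each KO library (red, left) and flox library (blue, right), with short lines at the mean of 2 libraries and a dashed line at the median of all protein-coding genes. Dnmt3a lies at 8.07 to 9.12% in all 4 libraries, Dnmt3b and Uhrf1 at 0, and Idh1 is the gene where both KO libraries (5.56 and 2.82%) lie above both flox libraries (1.84 and 2.01%).

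The 16 regions of Dnmt3a (chr12:3801559-3914443, GRCm38) were spread along the gene, and 5 of them were called in every library. The widest and highest scored of these, chr12:3869685-3871980, had 810 and 625 bp called in the KO libraries and 2217 and 1149 bp in the flox libraries. The authors' peak scores there were 171.78 and 127.49 in KO and 261.41 and 206.46 in flox, each above the median of its own list. Both KO libraries thus had a narrower peak than both flox libraries at the strongest 5hmC region of the gene. The region chr12:3811651-3812963 had the reverse order, with 1133 and 1123 bp in the KO libraries and 884 and 985 bp in the flox libraries. At the other 3 regions called throughout, the groups overlapped. They had 829 and 684 bp in KO and 564 and 958 bp in flox (chr12:3830546-3831644), 1234 and 1366 bp in KO and 1698 and 1309 bp in flox (chr12:3852743-3854496), and 1161 and 705 bp in KO and 1063 and 1331 bp in flox (chr12:3876439-3877868).

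One Dnmt3a region was called in both KO libraries and in neither flox library, and another had the opposite pattern. The KO-only region, chr12:3846394-3847903, had 1510 and 1030 bp in the KO libraries, with scores of 90.91 and 134.32, and no peak in the flox libraries. The flox-only region, chr12:3825255-3826516, had no peak in the KO libraries and 1000 and 1262 bp in the flox libraries, with scores of 67.27 and 53.48. They lie 40.17 kb and 18.91 kb downstream of the first start of the RefSeq table, both inside the gene. By rank within their own lists the KO-only peaks were higher, at the 47.7th percentile in KO replicate 1 and the 70.6th in KO replicate 2. The flox-only scores stood at the 24.5th percentile of the list in flox replicate 1 and at the 5th in flox replicate 2. The latter score was near the lowest the lists hold, which is 50.

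Another 4 Dnmt3a regions were called in 3 of the 4 libraries, and which library lacked the peak differed between them. The region upstream of the gene at chr12:3798382-3799024 had 0 and 643 bp in KO and 441 and 473 bp in flox. That at chr12:3818727-3820031 had 1224 and 0 bp in KO and 700 and 1138 bp in flox. Flox replicate 2 lacked the region chr12:3864409-3865669, with 1261 and 1151 bp in KO and 696 and 0 bp in flox. KO replicate 1 lacked the most downstream region, chr12:3897794-3899002, with 0 and 883 bp in KO and 1078 and 1156 bp in flox. The remaining 5 regions were weaker or less shared. Of these, chr12:3843211-3844357 was called in KO replicate 2 (856 bp) and flox replicate 1 (768 bp). KO replicate 1 alone had chr12:3805491-3806336 (846 bp) and chr12:3807813-3809005 (1193 bp), on either side of the first start. KO replicate 2 alone had chr12:3802106-3802951 (846 bp), and flox replicate 2 alone had chr12:3838751-3839826 (1076 bp).

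**Figure D2:**
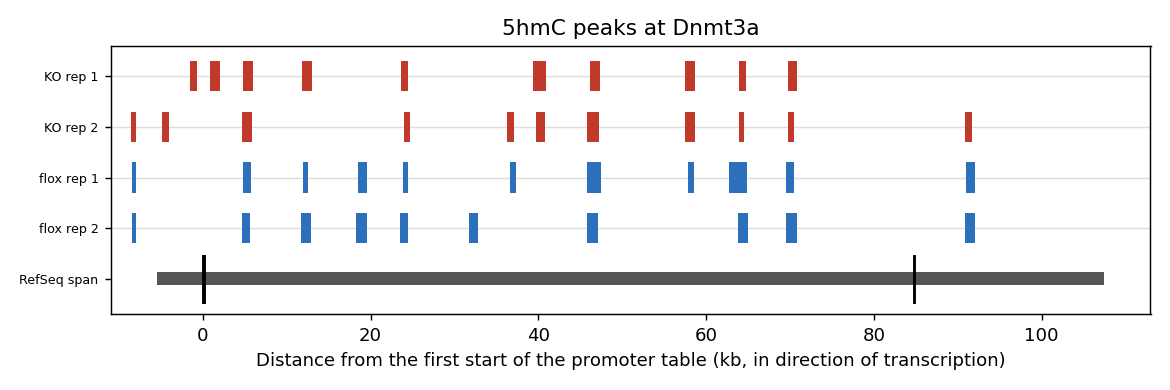
Peaks at Dnmt3a in each library (bars, red for KO and blue for flox) against the distance from its first start in kb (x axis, direction of transcription to the right), with the RefSeq span in grey and the 3 starts as black ticks, the first and second being too close to part at this scale. Peaks of all 4 libraries stand between the first and the third start, and around the third start no library has a peak for 19.9 kb.

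Most of the called bases of Dnmt3a lay between its first start and the third. Mouse Dnmt3a is known to have a short form from a downstream start, and the RefSeq table places the third start 84.76 kb after the first without tying it to a form. The stretch between them held 12 regions, with 12.2% and 8.9% of its length under peaks in the KO libraries and 11.3% and 10.9% in the flox libraries. From the third start to the end of the interval, 27.7 kb, only 1 region was found, and peaks covered 0% and 3.19% in KO and 3.89% and 4.17% in flox. This downstream part was lower in both KO libraries, by little in KO replicate 2. The third start itself lies in a gap of 19.9 kb without a peak in any library (chr12:3877869-3897793). Before the first start, 3 regions were found, with 846 and 1489 bp in KO and 441 and 473 bp in flox. Both KO libraries were higher there, and each had 1 peak that no other library had. Per length, KO replicate 2 had more under peaks there (14.3%) than between the starts. These 3 stretches were compared after the regions had been seen. The non-coding genes Dnmt3aos and Gm31623 overlap the interval and share its peaks.

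Dnmt1, the maintenance methyltransferase gene (chr9:20907206-20959888), had 4 regions and a called length close to the median gene. Its interval held 1875 and 2583 bp in the KO libraries and 2915 and 2358 bp in the flox libraries, and the groups overlapped (log2 difference -0.20, SE 0.25, 95% interval -0.83 to 0.44, limma adjusted p = 0.925). Its direction depended on the peaks and the interval used, and it became 0.69 when peaks scoring under 100 were left out. The widest and highest scored region called throughout, chr9:20941863-20943187, had 1305 and 1131 bp in KO and 812 and 686 bp in flox. At this region, 10.1 kb into the gene from its nearest start, both KO libraries had the wider peak, with scores of 126.66 and 107.27 in KO and 158.71 and 184.97 in flox. The scores thus ran against the widths. A second region called throughout lay behind the gene's end (chr9:20903551-20904840), and there the order was reversed, with 570 and 657 bp in KO and 1290 and 782 bp in flox.

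Dnmt1 also had the other flox-only region of the 8 genes. It lay at chr9:20945975-20946864, with no peak in KO and 813 and 890 bp in flox (scores 75.08 and 67.58), nearer to the starts than the region where KO peaks were wider. KO replicate 2 alone had a peak at chr9:20954614-20955408 (795 bp, score 61.51), between the most upstream start and the other 2 starts. Dnmt3b (chr2:153649411-153687730), the other de novo methyltransferase gene, and Uhrf1 (chr17:56303337-56323486) had no peak in any of the 4 libraries. The region nearest to the start of Dnmt3b was 18.96 kb away and called in all 4 libraries, and the nearest to the first start of Uhrf1 was 11.43 kb away and called in 1 library. Of all protein-coding genes, 22.9% had no peak in any library, so an empty interval is not rare. Such genes were mostly short, with a median interval of 15.43 kb and a 90th percentile of 37.1 kb, and the interval of Dnmt3b, at 48.32 kb, was longer than that, while that of Uhrf1 measured 30.15 kb.

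Idh1, the cytosolic isocitrate dehydrogenase gene (chr1:65158616-65186479), was the single tested member whose KO libraries both lay on one side of both flox libraries. It had 2105 and 1067 bp in the KO libraries and 697 and 761 bp in the flox libraries, with means of 1586 ± 734 bp in KO and 729 ± 45.3 bp in flox (SD, n = 2 each). It did not pass the test (log2 difference 0.73, SE 0.36, 95% interval -0.17 to 1.63, limma adjusted p = 0.825). Of the genes tested, 13.6% had both KO libraries above both flox libraries and 21.6% had both below, so such an order is common. The order rested on peaks that the KO libraries did not share. At the region called throughout, chr1:65184899-65186186, just inside the gene's first start, 1288 and 556 bp were called in KO and 697 and 761 bp in flox, so the groups overlapped. Scores there were 51.82 and 113.72 in KO and 76.14 and 61.8 in flox. KO replicate 1 alone had chr1:65156713-65157529 behind the gene's end (817 bp, score 50.78). All bases called at Idh1 in KO replicate 1 thus lay under peaks scoring close to 50, the lowest score in its list. KO replicate 2 alone had chr1:65186539-65187049 (511 bp, score 73.5), the peak that reached the start window whose sequence is shown above. It began 60 bp upstream of the first start and ran into Pikfyve, a lipid kinase gene, so it belongs to both genes. The difference was 0.36 without KO replicate 1, 1.10 without KO replicate 2 and 0.17 in the span alone, and it turned to -0.47 without the 10% lowest scored peaks of each library.

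Idh2, the mitochondrial counterpart (chr7:80094845-80118608), was nearly free of 5hmC peaks. Flox replicate 1 alone had a peak, of 835 bp and score 52 (chr7:80110574-80111408), and no other library called any base there. Its mean was under the filter of 500 bp, so it was not tested. Its interval also reaches Zfp710, as those of Tdg and Mbd4 reach Glt8d2 and Ift122.

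The repair genes Tdg and Mbd4 were near the median gene in the share of their interval under peaks (2.92% and 3.1%), and most of their called bases lay outside their spans. Tdg (chr10:82629814-82650799) had a region called in all 4 libraries upstream of its start (midpoint at -3.44 kb, chr10:82625948-82626858), with 911 and 482 bp in KO and 514 and 681 bp in flox. Scores there were 77.49 and 127.91 in KO and 50 and 60.59 in flox, and 50 is the lowest score in the list of flox replicate 1. Inside the gene, flox replicate 2 alone had a peak (chr10:82645282-82646308, 1027 bp, score 99.5). Over the interval, Tdg had 911 and 482 bp in KO and 514 and 1708 bp in flox, and the groups overlapped (log2 difference -0.34, SE 0.51, 95% interval -1.63 to 0.95, limma adjusted p = 0.939). Without flox replicate 2, which held the peak inside the gene, the difference turned to 0.23. Mbd4 (chr6:115840697-115853400) had no peak inside its span. Its 1 region, chr6:115836184-115837329, lay in the 5 kb behind its end and inside Efcab12, a neighbouring gene, with 1072 and 736 bp in KO and 1006 and 0 bp in flox. Its log2 difference was 0.70 (SE 0.69, 95% interval -1.03 to 2.42, limma adjusted p = 0.889), and it turned to -0.09 without flox replicate 2, the library with no peak.

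**Figure D3:**
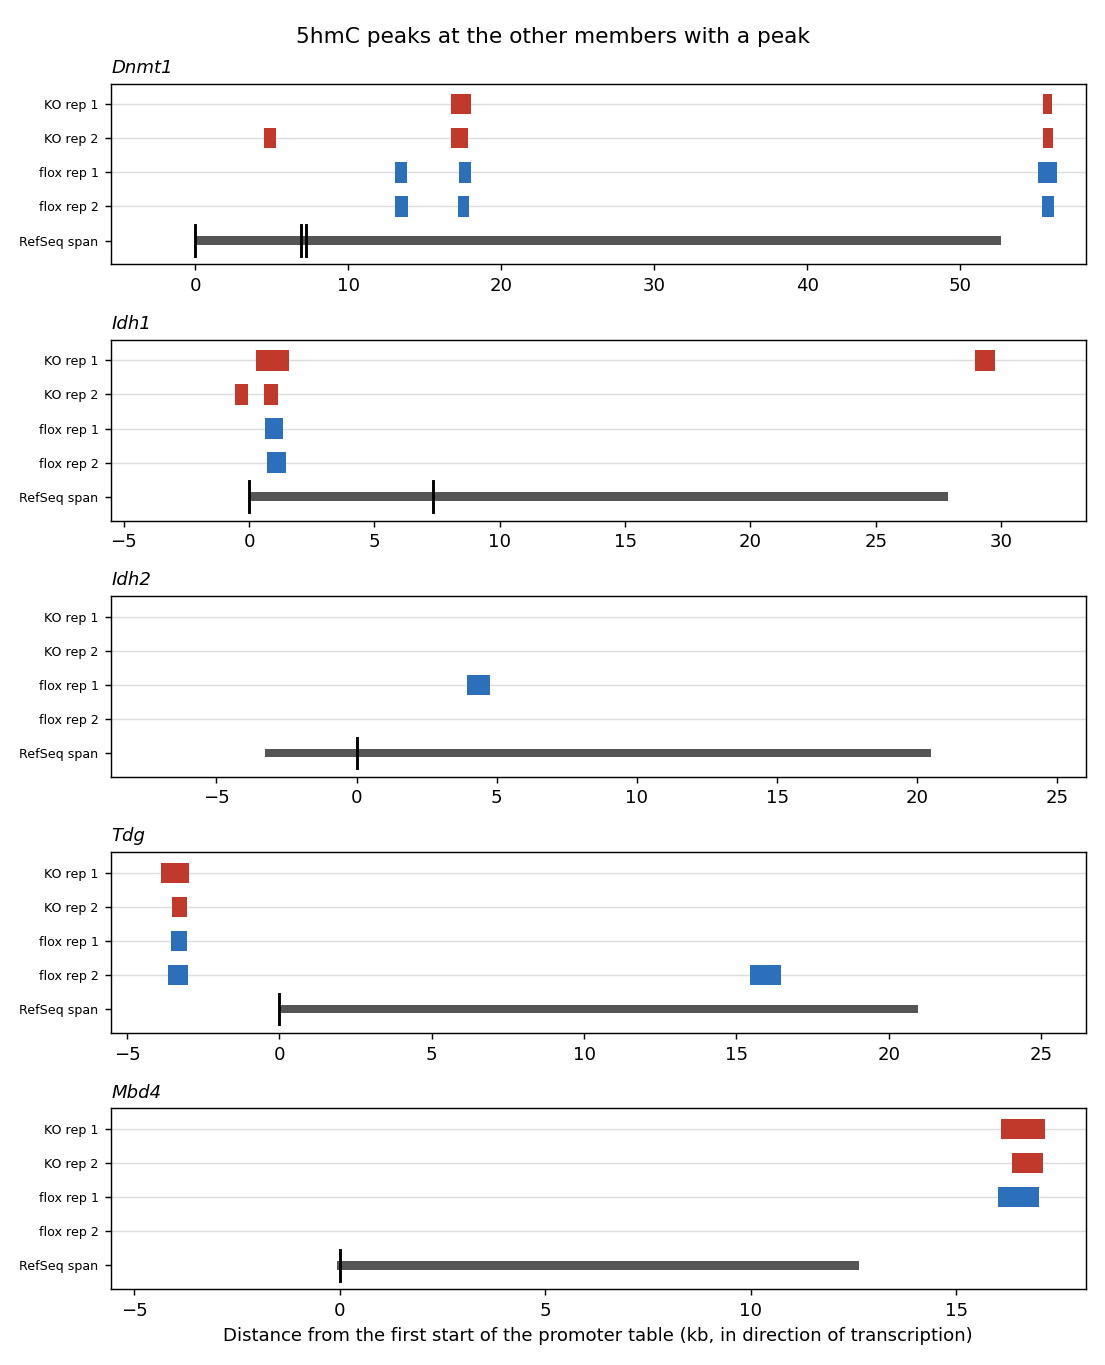
Peaks at Dnmt1, Idh1, Idh2, Tdg and Mbd4 in each library (bars, red for KO and blue for flox) against the distance from the first start of each gene in kb (x axis, direction of transcription to the right), with the RefSeq span in grey and starts as black ticks. Dnmt1 has a region in the flox libraries alone, Idh1 has peaks at its start and behind its end in 1 KO library each, and the single region of Mbd4 lies beyond the gene.

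Across the 8 genes, no difference in called length passed the test. Of the 8 genes, 5 were tested and 3 (Dnmt3b, Uhrf1, Idh2) had too little called length. Limma called 0 of the 5 at an adjusted p under 0.05, and 0 of all 14162 genes (0.0%), of which 869 had an unadjusted p under 0.05, none of the 5 among them. The log2 difference was above 0 in 2 and below 0 in 3 of the 5, with a median of -0.04, the same as over all genes tested (-0.04). An exact permutation test over 2 against 2 libraries cannot give a p below 0.333. Both KO libraries lay above both flox libraries at 1 member (13.6% of genes tested) and below them at 0 members (21.6% of genes tested).

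**Figure D4:**
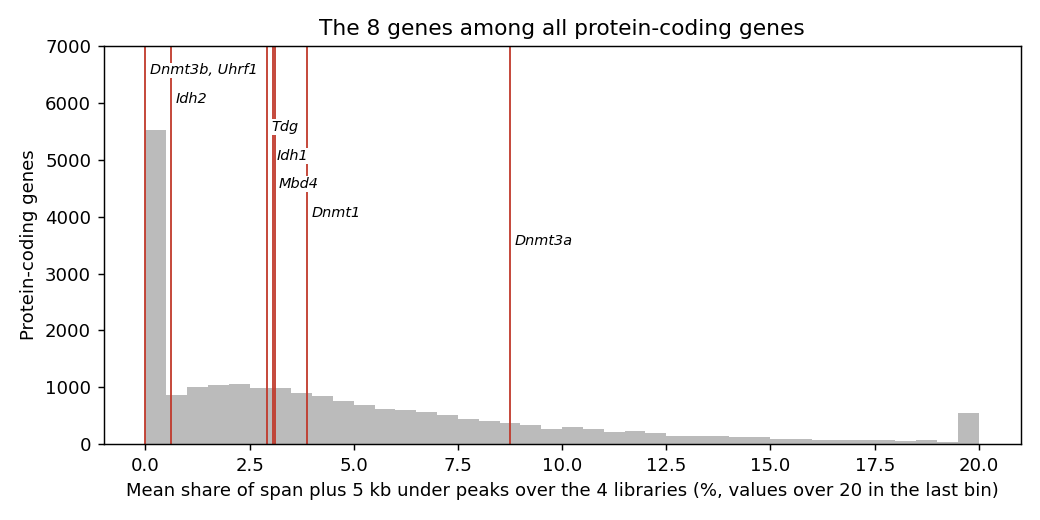
Number of protein-coding genes (y axis) by the mean share of their span plus 5 kb under peaks over the 4 libraries (x axis, %, bins of 0.5), with red lines at the 8 genes. Dnmt3a (8.76%) lies above most genes, Dnmt1, Mbd4, Idh1 and Tdg (2.92 to 3.88%) near the median, and Dnmt3b and Uhrf1 at 0.

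Region by region, being called in all 4 libraries and in 1 library alone were the most common patterns, as in genes in general. Of the 27 regions, 9 were called in all 4 libraries (33.3%, against 40.5% of the 81689 regions in protein-coding spans plus 5 kb). KO-only regions numbered 1 (3.7%, against 2.74%) and flox-only regions 2 (7.41%, against 3.21%). A further 9 were called in 1 library alone (33.3%, against 27.2%), 5 in 3 libraries (18.5%, against 15.7%), and 1 in a mixed pair (3.7%, against 10.7%). With so few regions, 16 of them at Dnmt3a, these shares are a description. Among the 9 regions called throughout, both KO libraries had more called bases than both flox libraries at 2 (15.0% in general) and fewer at 2 (18.5% in general).

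Pooled over the libraries, peaks of the 8 genes ranked below the middle of their lists, except in KO replicate 2. Most of these peaks, 42 of the 68, were at Dnmt3a, so the pooled ranks largely describe that gene. By the rank of its score within its own list, the median peak of the 68 stood at the 37.8th percentile, and 6 of them (8.8%) stood at or above the 75th percentile of their list. All 6 lay in the intervals of Dnmt1 and Dnmt3a, at the 3 regions chr9:20941863-20943187, chr9:20903551-20904840 (behind the end of Dnmt1) and chr12:3869685-3871980. The 36 peaks in regions called throughout had a median at the 46.2th percentile. All peaks of the 4 lists in such regions, inside or outside genes, had theirs at the 67.5th. By library, the median rank was at the 36.4th and 55.2th percentile in KO replicates 1 and 2 and at the 39.2th and 29th in flox replicates 1 and 2.

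**Figure D5:**
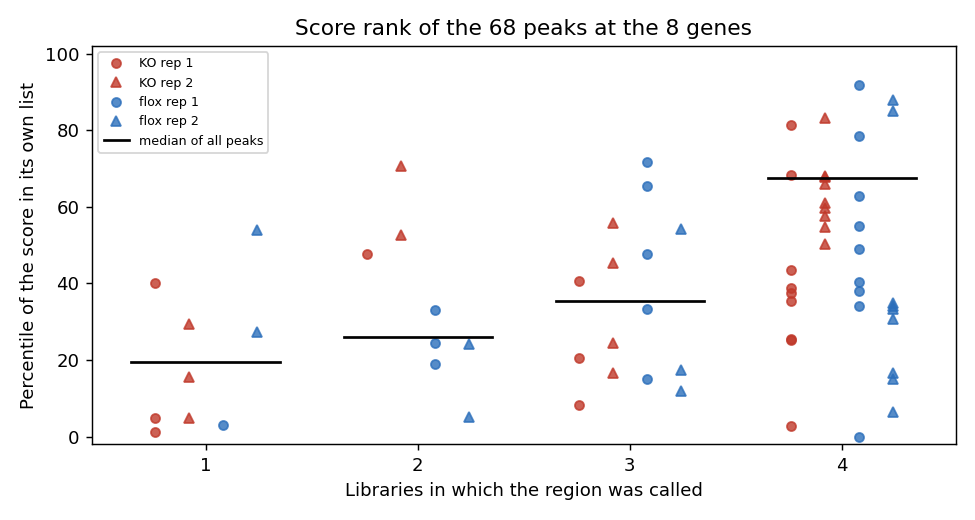
Percentile of each of the 68 peaks' scores within its own list (y axis) against the number of libraries in which its region was called (x axis), for KO (red) and flox (blue), replicate 1 as circles and replicate 2 as triangles, with black lines at the median of all peaks of the 4 lists. In regions called in all 4 libraries, most peaks of the 8 genes lie under the general median of 67.5, and the highest is a Dnmt3a peak of flox replicate 1 at 91.8.

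Genes around the same pathway gave no call either. They were grouped in 5 lists, and limma called 0 members of each list in either direction (0.0% of all genes). Of 20 further genes of the methylation machinery, 13 were tested, with a median log2 difference of -0.03. Both KO libraries lay above both flox libraries at 2 of them (15.4%, against 13.6% of all genes tested) and below at 3 (23.1%, against 21.6%). Dppa3 had 842 and 914 bp in KO and 424 and 404 bp in flox (log2 difference 0.60, SE 0.47). Uhrf2, the paralogue of Uhrf1, differed by 0.26 (SE 0.22), Usp7, a deubiquitinase gene, by -0.43 (SE 0.44), and Cdca7l by -0.54 (SE 0.24).

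Of 15 genes of methyl-CpG readers and their complexes, 10 were tested (median -0.09), with KO above flox at 2 (20.0%, against 13.6% in general) and below at 2 (20.0%, against 21.6%). Gatad2b, a subunit gene of the NuRD remodelling complex, had 1805 and 2350 bp in KO and 767 and 0 bp in flox (log2 difference 1.70, SE 0.51, limma adjusted p = 0.773). Mta1, of the same complex, had 1299 and 0 bp in KO and 2137 and 2054 bp in flox (-1.44, SE 0.63). The values of these 2 genes of 1 complex thus had opposite signs, and neither passed the test. Mbd5 differed by 0.41 (SE 0.22) and Zbtb4, a reader of methylated CpG, by -0.47 (SE 0.39). Of 28 genes of base excision repair and deamination, 15 were tested (median 0.01), with KO above flox at 3 (20.0%, against 13.6% in general) and below at 4 (26.7%, against 21.6%). Parp1, the strand-break sensor gene, had 1684 and 1704 bp in KO and 0 and 535 bp in flox (1.61, SE 0.49, adjusted p = 0.773). Apobec3 differed by -0.52 (SE 0.28) and the ligase gene Lig1 by -0.66 (SE 0.32).

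Of 27 genes of 2-oxoglutarate metabolism around Idh1 and Idh2, 18 were tested and none was called. The log2 difference was below 0 at 14 (77.8%, against 54.6% of all genes tested) and above 0 at 4, with a median of -0.25, against -0.04 over all genes tested. At 5 of the 18 both KO values were under both flox values (27.8%, against 21.6% in general), and at 1 they were over them (5.56%, against 13.6%). These counts describe the list and were not tested. Sdhd, a subunit gene of succinate dehydrogenase, had 485 and 0 bp in KO and 1331 and 927 bp in flox (-1.20, SE 0.60). Psat1, of serine synthesis, differed by -1.18 (SE 0.72), Suclg1, of succinyl-CoA ligase, by 0.62 (SE 0.43), and Idh3a, a subunit gene of the NAD-dependent isocitrate dehydrogenase, by 0.30 (SE 0.31). The 3 TET genes encode the oxidases that make 5hmC, and all 3 had a log2 difference below 0 (median -0.51), with both KO libraries below both flox libraries at 2 (21.6% of genes in general) and above at 0. Tet1 had 2519 and 2428 bp in KO and 4040 and 3736 bp in flox (-0.55, SE 0.20, limma adjusted p = 0.791). Tet3 had 5485 and 3739 bp in KO and 6664 and 6852 bp in flox (-0.51, SE 0.22, limma adjusted p = 0.824). At Tet2, where the groups overlapped, the difference was -0.09 (SE 0.31).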

How the data were processed

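Peak lists of 2 KO and 2 flox libraries of 5hmC-enriched DNA were compared. Groups came from the sample titles. An IgG control and an input were not used here. CASAVA 1.8, Bowtie, MACS 1.4 and GRCm38 (mm10) are named in the submitters' processing notes, without roles; for the caller's settings, its control and duplicates, nothing is given in the sources used here. The authors deposited 1 peak list per library, each peak with a score and a p-value of its own, the score being 10 times the −log10 of the p-value in the file. Scores served to describe, rank and filter peaks within a list, and p-values were not used further.

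From these lists, peaks overlapping by 1 bp or more were merged into regions. Gene spans and start windows came from RefSeq tables on GRCm38, with coordinates counted from 1. Exons, introns and sequence other than start windows were not analysed here. Called length is the number of bases under peaks in the span plus 5 kb. For the test it was scaled to the same called total in each library and analysed on the log2(bp + 500) scale by limma 3.58.1 in R 4.3.3, with a variance trend and robust fitting, leaving out genes whose mean was under 500 bp. P-values were adjusted over all genes by Benjamini-Hochberg, with a threshold of 0.05. Simulated data were used to check the fit. The pseudocount shrinks differences of genes with few called bases. The genes, lists and tests were chosen with earlier results of these data known. All 8 genes and all their regions are given. Of the pathway lists, at most 2 genes a direction are named, by the size of their difference. A further gene that this rule names is not reported here. Python 3.11.15, numpy 2.4.6, pandas 2.3.3, scipy 1.17.1 and matplotlib 3.10.9 were used.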

Additional observations from a re-analysis of the deposited data

How the results depend on the processing

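Limma called 0 genes and 0 members under every alternative run (peak thresholds, pseudocounts, no filter, span alone, span plus 2 kb, no scaling, number of peaks for the members, replicate block, each library left out). With the replicate block 882 genes had an unadjusted p under 0.05 and the smallest adjusted p was 0.797. The labels do not say whether KO and flox libraries of the same replicate number were paired. The correlation of replicate differences between KO and flox was 0.00649 over 14162 genes, which cannot exclude a pairing. The block changed no call. The direction turned for Dnmt1 without peaks scoring under 100 (0.69), with the top 50000 peaks of each list (0.22), the span alone (0.01) and the span plus 2 kb (0.01), for Idh1 and Tdg without the 10% lowest scored peaks (-0.47 and 0.16), and with 1 library left out for Dnmt3a (range -0.13 to 0.05), Tdg (-0.91 to 0.23) and Mbd4 (-0.09 to 1.48). It held with 1 library left out for Idh1 (0.36 to 1.10) and Dnmt1 (-0.38 to -0.01). By the number of peaks Idh1 differed by 0.58 (SE 0.08, limma adjusted p = 0.259). It had 2 and 2 peaks in KO and 1 and 1 in flox. The raw counts had no spread within a group, so this SE rests mostly on the variance fitted over all genes. In this run 1 of the 5 members had an unadjusted p under 0.05 by limma. Tdg and Mbd4 could not be fitted within 2 kb, nor Idh1, Tdg and Mbd4 with the 2 stricter peak thresholds, where too little length was called. Regions called in all 4 libraries fell to 2 of 13 with a score of at least 100 and 1 of 11 with the 50000 highest scored peaks. At these stricter thresholds, 10 and 9 regions were called in 1 library alone. Where 50% of a region had to be covered, 5 regions were called in all 4 libraries. KO-only and flox-only regions were 0 and 0 at both stricter thresholds, and flox-only was 1 without the 10% lowest scored peaks. Over the 3 libraries left when 1 was taken out (added after seeing the data), KO-only counts were 1 to 4, flox-only counts 3 to 4 and regions in 1 library 3 to 7. Where a group had 1 library left, a region called in that library alone was counted as KO-only or flox-only, and not as 1 library. These counts are therefore not comparable with those over 4 libraries. Other causes were not tested, beyond the fewer peaks that the thresholds leave. Depth is unknown, so weak peaks limit every count given here.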
